A study of Drosophila melanogaster with 30 samples.

Results

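The genes described here are 10 genes of the JAK/STAT pathway of *Drosophila*, out of 17807 genes in each of 4 tables of expression from the ovary and from ovarian cell lines. They were chosen by symbol, and all 10 were found in every table: the ligand genes *upd1*, *upd2* and *upd3*, the receptor gene *dome* and the receptor-like gene *et*, the kinase gene *hop*, the transcription factor gene *Stat92E*, the feedback inhibitor gene *Socs36E*, and 2 genes that act beside or below STAT, *apt* and *chinmo*. The study asks how the germline programme of gene expression is set in the ovary and sequenced RNA from 30 libraries in 9 groups. Values are normalized counts, meaning the reads counted on a gene divided by a factor for the depth of the library. Each table was scaled apart, so groups are compared only within a table.

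The groups were as follows. Ovaries of flies of the genotype w[*]; TI{TI}vas[AID:EGFP], in which GFP at the *vas* locus marks germ cells and which were fed yeast extract, were pooled, dissociated and sorted into GFP-positive cells (vas-GFP+, labelled germline) and GFP-negative cells (vas-GFP-, labelled somatic), with 3 libraries each. The vas-GFP- cells therefore hold every ovarian cell without GFP and not a single cell type. The cell lines were fGS/OSS, a wild-type culture that the labels describe as germline stem cells mixed with a somatic sheet, OSCs labelled as knockout of *l(3)mbt* (a chromatin repressor gene), and wild-type OSCs, a female line of somatic ovarian cells (4 libraries each). The fGS/OSS cells, but neither OSC line, were grown in part in conditioned medium. These 18 libraries were made from total RNA depleted of ribosomal RNA. OSCs of both genotypes were also given *ovo-FLAG*, a tagged *ovo* driven by the actin 5C promoter, or an empty vector by nucleofection, and were harvested 48 h later for poly(A) RNA (3 libraries each). Each line is a single stock, so that p-values measure the spread between libraries of that stock.

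In the JAK/STAT pathway a secreted Unpaired ligand binds the receptor Domeless, the JAK kinase Hopscotch that is bound to the receptor phosphorylates STAT92E, and STAT92E enters the nucleus and switches on its target genes. One of these, *Socs36E*, encodes a SOCS protein that limits the pathway, and its RNA is widely used as a readout of signalling. In the ovary the pathway is known for the polar cells, a pair of follicle cells at each end of an egg chamber that secrete Unpaired and recruit border cells, and for its role in the escort cells that surround germline stem cells.

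Before the results, several facts of the libraries bear on them. Reads counted on genes ranged from 3.24 to 6.20 M in vas-GFP+ cells and from 8.39 to 13.1 M in vas-GFP- cells, and from 9.68 to 23.1 M in the lines. Nucleofected KO-labelled OSCs had 5.82 to 8.61 M reads per library with *ovo-FLAG* and 1.63 to 17.0 M with empty vector. Nucleofected OSCs had 2.27 to 5.20 M with *ovo-FLAG* and 7.64 to 12.6 M with empty vector. *l(3)mbt* itself had 5555 to 6016 normalized counts in the KO-labelled libraries and 4612 to 6200 in wild-type OSCs, and the log2 fold change was -0.00 with an adjusted p of 0.99. A count over the whole gene does not show a short deletion, so it does not check the label, and these cells are called KO-labelled OSCs throughout. *ovo*, the gene that was introduced, had 699, 612 and 636 normalized counts with *ovo-FLAG* and 10.2, 7.12 and 11.2 with the empty vector in OSCs. In KO-labelled OSCs it had 2465, 2499 and 2231 with *ovo-FLAG* and 1015, 969 and 871 with the empty vector, and RNA of the plasmid and of the chromosomal gene is not separated by these counts. Germ cell markers fitted the sort (8 of 8 higher in vas-GFP+ cells). In fGS/OSS the germ cell markers were uneven, with 9338 reads of *bam*, 2060 of *vas*, 247 of *AGO3*, 182 of *orb* and 86 of *aub* over the 4 libraries, but 18 of *nos* and 1 each of *osk* and *otu*. Wild-type OSCs had 420 of *bam*, 66 of *vas*, 413 of *AGO3*, 95 of *orb*, 164 of *aub*, 3 of *nos*, 14 of *osk* and 4 of *otu*. Libraries of a group were compared over genes with a mean of at least 50, counting those in which 1 library lay over 1.5-fold beyond all the others of its group. These were 10.4% to 17.3% of genes for each vas-GFP+ library, 3.37% for OSC replicate 1, 2.68% for OSC replicate 4 and 1.98% for replicate 3 of KO-labelled OSCs with empty vector, and at most 1.08% for every other library.

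The 3 ligand genes lie close together on chromosome X (BDGP6): *upd2* (FBgn0030904) at 18240654 to 18243284, *upd3* (FBgn0053542) at 18277233 to 18284596 and *upd1* (FBgn0004956) at 18305354 to 18309291. The receptor genes are neighbours on the same chromosome and strand, *et* (FBgn0031055) at 19672312 to 19675891 and *dome* (FBgn0043903) at 19676061 to 19683518. The gene *hop* (FBgn0004864) is at 11360930 to 11368098 of chromosome X and *Stat92E* (FBgn0016917) at 20535323 to 20552311 of 3R. *Socs36E* (FBgn0041184, 2L, 18138675 to 18152417), *et* and *apt* (FBgn0015903, 2R, 23564891 to 23599526) overlap genes on the opposite strand, which the authors' strand-specific counting keeps apart. *chinmo* (FBgn0086758) is at 1651258 to 1704682 of 2L.

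Per kilobase of exon, *dome*, *hop* and *Stat92E* each had a higher mean level than each ligand gene in every group. The gap was narrowest in KO-labelled OSCs with *ovo-FLAG*, where *hop* had 148 and *upd2* 89.6 normalized counts per kb. In vas-GFP- cells *Socs36E* had 634 ± 63.1 normalized counts per kb (SD, n = 3), *Stat92E* 555 ± 25.5, *dome* 494 ± 21.3 and *hop* 185 ± 2.27, against 52.3 ± 3.83 for *upd1*, 33.3 ± 5.32 for *upd3* and 3.24 ± 1.46 for *upd2*. The order changed in OSCs, where *Stat92E* came first with 1726 ± 172 (SD, n = 4) and *upd1* last with 0.314 ± 0.324. In both OSC lines the most abundant ligand RNA per kb was that of *upd3*, with 69.5 ± 8.28 in KO-labelled and 39.9 ± 24.8 in wild-type OSCs. *upd2* had 38.9 ± 2.84 and 22.1 ± 13.3 per kb in those lines. The spreads of *upd3* and *upd2* overlapped in wild-type OSCs.

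Sorted germ cells held less RNA than sorted somatic cells for 8 of the 10 genes, among them all 3 ligands, *Stat92E* and, by the largest margin of those well expressed in both, *Socs36E*. The calls of *upd2*, *upd3* and *hop* were lost in several alternative fits, as given below. A single gene, *chinmo*, was higher in germ cells. Over all 10481 genes tested, 19.7% were lower and 16% higher at an adjusted p under 0.05 by limma, which was run on log2-transformed normalized counts after adding 1 and is the rule for a call throughout. The median log2 fold change was -0.74 over the 10 genes and -0.07 over all genes tested. Of the 10 genes, 9 had no overlap between the libraries of both fractions, where 49.9% of all genes tested had none. The median was -0.74 also with *upd1* and *upd2* set to the limits that their few reads allow. In sorted or cultured populations, fewer cells of a type and less RNA per cell cannot be told apart.

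*upd1*, the ligand made by polar cells, was almost absent from the sorted germ cells. It had 0, 0 and 1.80 normalized counts in vas-GFP+ cells, against 165, 151 and 174 in vas-GFP- cells. The groups are far apart, with 1 read over the vas-GFP+ libraries and 640 over the vas-GFP- libraries, which makes the RNA 407-fold lower in germ cells (exact 95% interval 72.8 to 16110, counting error only). *upd2* was listed at 0 in all 3 vas-GFP+ libraries and at 9.52, 5.96 and 3.77 in vas-GFP- libraries. Taking 3 reads in all as the upper limit of a group with none, *upd2* was at least 5.73-fold lower in germ cells (adjusted p = 0.034). *upd3* had 10.4, 11.2 and 39.7 normalized counts in vas-GFP+ and 81.5, 80.0 and 60.3 in vas-GFP- cells, a log2 fold change of -2.06 (standard error, SE, 0.61, adjusted p = 0.033). The third vas-GFP+ library was the highest of its group but below every vas-GFP- library. The calls of *upd2* and *upd3* were not made with edgeR on the recovered reads (adjusted p = 0.073 and 0.053), the replicate block or the paper's thresholds. *upd2* was also not called with DESeq2, quantile normalization or a pseudocount of 5. It was called in 5 of 13 alternative fits, and *upd3* in 7 of 15. Without vas-GFP- replicate 1, *upd2* was below the level for testing. The call of *upd2* was also lost without vas-GFP- replicate 2 or 3 (adjusted p = 0.15 and 0.12), and that of *upd3* without any single library other than vas-GFP+ replicate 3 (0.059 to 0.14).

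The receptor, kinase and STAT genes were expressed in both fractions and differed by less than 2-fold. *dome*, which encodes the only signalling receptor of the fly pathway, had 1523, 1780 and 1548 normalized counts in vas-GFP+ and 2368, 2528 and 2332 in vas-GFP- cells, and was 1.49-fold lower in germ cells (adjusted p = 0.0015). *Stat92E* had 1703, 1539 and 1929 in vas-GFP+ and 2945, 2985 and 2738 in vas-GFP- cells, 1.68-fold lower (adjusted p = 7.2e-04). Neither gene's groups overlapped. The kinase gene *hop* had 809, 765 and 646 in vas-GFP+ cells and 932, 923 and 946 in vas-GFP- cells. Its groups were also apart, and the 1.27-fold difference lay close to the threshold (adjusted p = 0.049). The call was lost without any one of the vas-GFP- libraries (0.14 to 0.16) or vas-GFP+ replicate 2 (0.050). A pseudocount of 5, no filter on low values, the replicate block, quantile normalization and the paper's thresholds each lost it too. It was kept in 6 of 15 alternative fits. *et*, whose product resembles Domeless, lacks its signalling part and dampens the pathway, had 108, 79.0 and 0 in vas-GFP+ and 30.3, 7.66 and 16.0 in vas-GFP- cells. The germ cell libraries lay on both sides of the somatic ones (log2 fold change 0.30, 95% interval -3.75 to 4.36, adjusted p = 0.91). Without the third vas-GFP+ library, *et* was called higher, with a log2 fold change of 2.49 (adjusted p = 0.020).

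*Socs36E* had 327, 402 and 290 normalized counts in vas-GFP+ cells, against 2384, 2313 and 1971 in vas-GFP- cells. The groups did not overlap, and the RNA was 6.56-fold lower in germ cells (log2 fold change -2.71, SE 0.14, adjusted p = 8.54e-06). *apt*, which encodes a nuclear protein that limits STAT activity in the follicle cells around the border cells, had 937, 869 and 760 in vas-GFP+ and 1494, 1485 and 1297 in vas-GFP- cells (1.67-fold lower, adjusted p = 0.0017). *chinmo*, a BTB zinc finger gene known as a STAT target in somatic stem cells of the testis, went the other way. It had 359, 696 and 559 in vas-GFP+ cells and 38.1, 53.6 and 45.2 in vas-GFP- cells, which is 3.49 higher on the log2 scale (SE 0.30, adjusted p = 9.0e-05). Every germ cell library lay far above every somatic library.

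**Figure D1:**
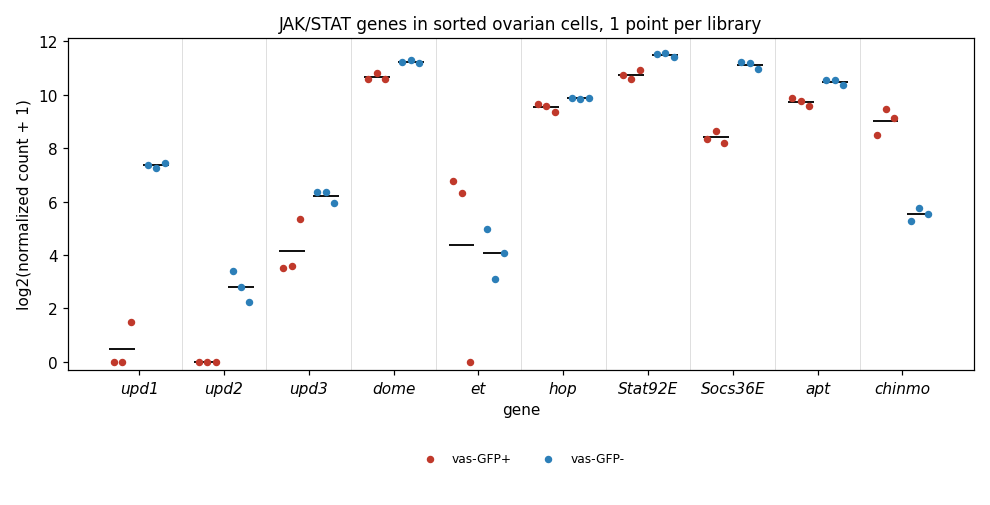
Each point is 1 library, the vertical axis gives log2 of the normalized count plus 1, the horizontal axis lists the 10 genes, and black lines are means over 3 libraries of vas-GFP+ (left, red) and vas-GFP- cells (right, blue). The 2 sets of points are apart for 9 genes and overlap for *et*, and *chinmo* is the only one of these 9 with vas-GFP+ on top.

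Genes that mark other cells moved between the fractions as well. The 6 follicle cell markers were all lower in vas-GFP+ cells and summed to 2176 to 3196 normalized counts there, against 58170 to 60041 in vas-GFP- cells. The 3 polar cell markers, which include *Fas3* of the follicle list, were also all lower (sums of 1032 to 1461 against 2865 to 3061). The germ cell markers summed to 21595 to 23311 in vas-GFP+ and to 387 to 453 in vas-GFP- cells, and none of them was at 0 in either group. Of 4 cap and escort cell markers only *ptc* was called, lower in vas-GFP+ cells (sums of 324 to 686 against 922 to 994). Of 8 muscle genes 5 were lower (1742 to 2347 against 3840 to 4103), and of 3 haemocyte markers tested *Hml* was lower (list sums of 601 to 983 against 563 to 614, with *He* at 0 in both groups). Depth also differed between the fractions, as given above, and the part of cell makeup or depth in the differences of the pathway genes was not tested. Of 14 other regulators of the pathway, 2 were higher in germ cells, *Ptp61F*, a phosphatase that acts on the kinase and STAT (log2 fold change 0.52), and *Socs44A* (0.94), and 1 was lower, *lwr* (-0.28), which encodes the SUMO-conjugating enzyme. Their median was 0.17. Another list held 10 genes known as targets in one fly tissue or another, without the direction of their regulation. Of these, 5 were expressed highly enough to be tested. One of these was called, the homeobox gene *mirr*, with 134, 182 and 184 normalized counts in vas-GFP+ and 596, 676 and 620 in vas-GFP- cells (log2 fold change -1.92, adjusted p = 1.3e-04). The others tested were not called and went in both directions. The humoral factor gene *TotA* had no read in vas-GFP+ and 22 reads in vas-GFP- libraries, at least 4.67-fold lower by the same limit. *slbo* had means of 8.57 in vas-GFP+ and 46.5 in vas-GFP- cells. The means of *zfh1* (739 and 458) and *vir-1* (83.7 and 72.9) were higher in vas-GFP+ cells.

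In fGS/OSS the ligand RNAs and *chinmo* differed from OSCs, while the receptor, kinase and STAT genes did not pass the test. *upd1* was higher, and *upd2*, *upd3*, *apt* and *chinmo* were lower in fGS/OSS. This is 1 gene higher and 4 lower of 10 tested, among 9533 genes of which 30.3% were higher and 31.3% lower. The median log2 fold change was -0.19 over the 10 genes and -0.01 over all tested. OSC replicates 1 and 4 both stood apart from their group, as given above. Replicate 4 did so in several pathway genes, at 2.65, 2.69, 1.77 and 0.718 times the mean of the other 3 libraries for *upd2*, *upd3*, *Socs36E* and *apt*, and results are therefore also given without it.

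*upd1* had 6.70, 6.90, 6.92 and 7.33 normalized counts in the 4 fGS/OSS libraries and 0.512, 2.36, 1.06 and 0 in the OSC libraries. All fGS/OSS libraries lay above all OSC libraries (log2 fold change 2.15, SE 0.46, adjusted p = 0.0015), on 27 and 4 reads in total. *upd2* had 33.5, 16.1, 14.8 and 13.6 in fGS/OSS and 40.5, 25.9, 26.4 and 82.0 in OSCs. The groups overlapped through the first fGS/OSS library, and the call (log2 fold change -1.05, adjusted p = 0.036) was lost without OSC replicate 4 (-0.70, adjusted p = 0.11), OSC replicate 1 or any of fGS/OSS replicates 2, 3 and 4 (adjusted p = 0.057 to 0.094). *upd3* had 42.1, 32.2, 38.6 and 33.5 in fGS/OSS against 85.5, 51.9, 49.6 and 168 in OSCs, a log2 fold change of -1.08 (SE 0.33, adjusted p = 0.014). It stayed below every OSC library, and the value without replicate 4 was -0.72 (adjusted p = 0.024).

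*dome* had 4039, 4125, 3989 and 3865 normalized counts in fGS/OSS and 3185, 3654, 3580 and 3821 in OSCs, a log2 fold change of 0.17 (95% interval 0.01 to 0.33, adjusted p = 0.060). The groups were apart by a small gap, and *dome* was called higher without OSC replicate 4 (0.21, adjusted p = 0.026) and, narrowly, without OSC replicate 1 (0.12, adjusted p = 0.050). With all libraries, DESeq2 also called *dome* higher. *hop* (1344 to 1663 in fGS/OSS, 1390 to 1751 in OSCs) and *Stat92E* (9755 to 10142 against 7711 to 9789) had intervals of the log2 fold change of -0.27 to 0.14 and -0.03 to 0.34. *et* was low in both lines, from 3.96 to 10.4 in fGS/OSS and from 4.72 to 16.9 in OSCs (adjusted p = 0.32).

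For *Socs36E* the answer turned on 1 library. It had 3057, 3004, 2884 and 2751 normalized counts in fGS/OSS and 2301, 2412, 2317 and 4156 in OSCs, with a log2 fold change of 0.11 (adjusted p = 0.59). Without OSC replicate 4, it was called higher in fGS/OSS (0.32, adjusted p = 0.0015), since every fGS/OSS library then lay above every OSC library. *apt* had 4467, 4615, 4597 and 4283 in fGS/OSS against 5467, 6809, 6082 and 4397 in OSCs, 1.25-fold lower (adjusted p = 0.029). Its groups overlapped only through OSC replicate 4, and the value without that library was -0.44 (adjusted p = 0.0010). Without any other single library the adjusted p of *apt* was 0.053 to 0.087.

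The most distinct of the 10 genes between these lines was *chinmo*. It had 1246, 1230, 1287 and 1154 normalized counts in fGS/OSS and 9705, 12521, 11559 and 11640 in OSCs, far apart and 9.20-fold lower in fGS/OSS (log2 fold change -3.20, SE 0.09, adjusted p = 4.7e-11). fGS/OSS is labelled as holding germline cells, and the sorted germ cells had more *chinmo* RNA than sorted somatic cells. These contrasts come from different tables and are set side by side only.

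Of the other regulators, 7 of 14 were higher in fGS/OSS and 2 lower (median 0.22), led by *E(bx)* (log2 fold change 0.64), a nucleosome remodelling factor gene, and *asrij* (0.68) among those higher, and by *CycD* (-0.25), the cyclin partner of Cdk4, and *Ipk2* (-0.23) among those lower. Of 4 targets tested, *slbo*, the C/EBP gene that border cells require, was higher with 197, 189, 156 and 163 normalized counts in fGS/OSS and 10.2, 13.0, 9.50 and 22.5 in OSCs (log2 fold change 3.65, adjusted p = 1.5e-07). *mirr* (-1.39) and the zinc finger gene *zfh1* (-0.50) were lower. Markers of other cells differed too. The 8 germ cell markers summed to 3015 to 3165 normalized counts in fGS/OSS and 195 to 282 in OSCs, with 4 of 6 tested higher. Most of the fGS/OSS sum was *bam* (mean 2410), and *aub* (means of 22.1 in fGS/OSS and 29.1 in OSCs) and *AGO3* (64.5 and 79.2) were not called. Of 4 cap and escort cell markers 3 were higher, among them *en*, which was at 0 in every OSC library (list sums of 23482 to 24026 against 10591 to 16116). Follicle cell markers were higher for 3 of 6 and lower for 1 (20008 to 22931 against 10800 to 13561). Polar cell markers were higher for 2 of 3 (1489 to 1622 against 870 to 1158). Muscle genes were higher for 2 and lower for 4 of 7 tested (5826 to 6696 against 9390 to 12704), and of 3 haemocyte markers tested *srp* was higher and *Pxn* lower (1212 to 1379 against 547 to 836). Whether this makeup bears on the pathway genes was not tested.

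In KO-labelled OSCs 2 ligand RNAs and *apt* were higher than in wild-type OSCs, and these calls were fragile. Of the 9 pathway genes tested, 3 were called higher and 0 lower, where 19.4% of 9592 genes were higher and 17.2% lower. No pathway gene was lower at an unadjusted p under 0.05 (0 genes with limma), nor as called with edgeR or DESeq2. With edgeR none of the 3 was called higher (0 of 9), and leaving out single libraries gave 0 to 2. The median log2 fold change of the genes tested was 0.24, and 0.02 over all genes.

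*upd2* had 76.1, 84.3, 70.6 and 76.7 normalized counts in KO-labelled and 40.5, 25.9, 26.4 and 82.0 in wild-type OSCs (log2 fold change 0.96, SE 0.31, adjusted p = 0.027). *upd3* had 176, 146, 134 and 161 in KO-labelled and 85.5, 51.9, 49.6 and 168 in wild-type OSCs (0.97, SE 0.34, adjusted p = 0.044). For both genes the KO-labelled libraries were above 3 of the wild-type libraries, and replicate 4 of the wild-type line lay among them. Without that library the log2 fold changes were 1.31 for *upd2* (adjusted p = 6.2e-04) and 1.33 for *upd3* (adjusted p = 3.1e-04). With edgeR and all libraries the adjusted p was 0.079 for *upd2* and 0.12 for *upd3*. The call of *upd2* was lost without OSC replicate 2 or 3 or KO-labelled replicate 1, 2 or 4 (0.060 to 0.076), and that of *upd3* without any library other than OSC replicate 4 (0.069 to 0.11).

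*apt* had 7583, 6883, 6442 and 7389 normalized counts in KO-labelled and 5467, 6809, 6082 and 4397 in wild-type OSCs (log2 fold change 0.33, adjusted p = 0.048). Its groups overlapped, and the difference was 0.21 without OSC replicate 4 (adjusted p = 0.12). Its call was kept without OSC replicate 2 only (0.016) and lost without each other library (0.052 to 0.13). *Stat92E* had 10761, 10169, 10349 and 10975 in KO-labelled and 7711, 9789, 9111 and 9352 in wild-type OSCs. These groups did not overlap, and the log2 fold change of 0.24 (95% interval 0.04 to 0.44) missed the threshold (adjusted p = 0.060, and 0.047 without OSC replicate 2). *Stat92E* was also called higher with DESeq2 and with 1 estimate of spread over the 12 libraries of the lines. In all, 3 of 18 alternative fits called it. *Socs36E* had 2748, 2393, 1864 and 2412 in KO-labelled and 2301, 2412, 2317 and 4156 in wild-type OSCs, with an interval from -0.66 to 0.23. *dome*, *hop*, *et* and *chinmo* had adjusted p-values from 0.14 to 0.62, and *upd1* was below the level for testing, on 3 reads in KO-labelled and 4 in wild-type libraries.

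Among the other regulators, 7 of 14 were higher and 1 lower in KO-labelled OSCs (median 0.24). *Hrs*, which encodes an endosomal sorting protein (log2 fold change 0.35), and *E(bx)* (0.37) had the smallest p of those higher, and *Cdk4* was lower (-0.96, adjusted p = 2.0e-06). Of 4 targets tested, *zfh1* was higher (0.52), *mirr* lower (-0.88), and *vir-1*, a gene induced by virus through this pathway, lower with 95.1, 71.8, 70.6 and 116 normalized counts in KO-labelled and 188, 230, 271 and 199 in wild-type OSCs (-1.34, adjusted p = 8.3e-05). Genes of muscle cells, which serve here as a list of other cells, were lower in KO-labelled OSCs for 5 of 6 tested (sums of 718 to 856 against 9390 to 12704). Germ cell markers were higher for 4 of 7 and lower for 2 (1205 to 1432 against 195 to 282, with *otu* at 0 in the KO-labelled libraries). Polar cell markers were higher for 2 of 3 (1603 to 1795 against 870 to 1158). Follicle cell markers were higher for 3 of 6 (15651 to 18761 against 10800 to 13561). Of 3 cap and escort cell markers tested *hh* was higher (15242 to 18606 against 10591 to 16116), and of 3 haemocyte markers *srp* was higher (1110 to 1322 against 547 to 836). The part of all these genes in the pathway values was not tested.

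Set against KO-labelled OSCs, fGS/OSS differed in 7 of the 10 genes, a share close to that over all genes. These values share their libraries with both comparisons above and add no independent evidence to them, but do not involve OSC replicate 4. Among 9620 genes, fGS/OSS was called higher for 34.4% and lower for 36.3%. *upd1* and *Socs36E* were higher and *upd2*, *upd3*, *et*, *apt* and *chinmo* were lower, with a median of -0.37 over the 10 genes and -0.03 over all tested. The 4 libraries of each line were apart for 7 of the 10 genes (*upd1*, *upd2*, *upd3*, *Stat92E*, *Socs36E*, *apt* and *chinmo*, whose values are given above), and for 64.2% of all genes tested. *upd1* rested on 27 reads against 3, a ratio of 8.44 (exact 95% interval 2.60 to 43.5). *upd2* was 4.05-fold lower and *upd3* 4.13-fold lower in fGS/OSS (adjusted p = 2.7e-06 and 4.7e-09). *Socs36E* was 0.33 higher on the log2 scale (SE 0.09, adjusted p = 0.0082). This call was lost with 1 estimate of spread over the 12 libraries of the lines (adjusted p = 0.11).

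*chinmo* was 10.5-fold lower in fGS/OSS than in KO-labelled OSCs (adjusted p = 9.0e-18) and *apt* 1.57-fold lower (adjusted p = 9.9e-09). The call of *et* (log2 fold change -0.92, adjusted p = 0.044) rests on 25 reads in fGS/OSS and 48 in KO-labelled OSCs. It was lost with edgeR (adjusted p = 0.056), and without KO-labelled replicate 3 or 4 or fGS/OSS replicate 1, 3 or 4 (0.069 to 0.16). DESeq2, a pseudocount of 0.5, no filter on low values, the replicate block and quantile normalization each lost it too. So did 1 estimate of spread over the 12 libraries of the lines. The call was kept in 6 of 18 alternative fits. *dome*, *hop* and *Stat92E* lay within narrow intervals around 0, from -0.11 to 0.13 for *dome*, from -0.14 to 0.13 for *hop* and from -0.18 to 0.01 for *Stat92E*. *Stat92E* was called lower with DESeq2 on all libraries and without KO-labelled replicate 2 (-0.10, adjusted p = 0.042). Of the other regulators 6 were higher, led by *Cdk4* (1.17) and *asrij* (0.98), and 5 lower, led by *lwr* (-0.73) and *Ipk2* (-0.51), with a median of -0.01. Of 5 targets tested, *slbo* (2.83) and *vir-1* (1.58) were higher and *zfh1* (-1.02) and *mirr* (-0.51) lower. Markers of other cells differed in both directions. Germ cell markers were higher for 2 and lower for 5 of 7 tested (sums of 3015 to 3165 in fGS/OSS and 1205 to 1432 in KO-labelled OSCs), and follicle cell markers higher for 3 and lower for 2 of 6 (20008 to 22931 against 15651 to 18761). Polar cell markers were higher for 2 and lower for 1 of 3 (1489 to 1622 against 1603 to 1795), and cap and escort cell markers higher for 2 and lower for 1 of 4 (23482 to 24026 against 15242 to 18606). Muscle genes were higher for 3 and lower for 3 of 7 (5826 to 6696 against 718 to 856), and haemocyte markers higher for 1 and lower for 1 of 3 (1212 to 1379 against 1110 to 1322). Their part in the values of the pathway genes was not tested.

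**Figure D2:**
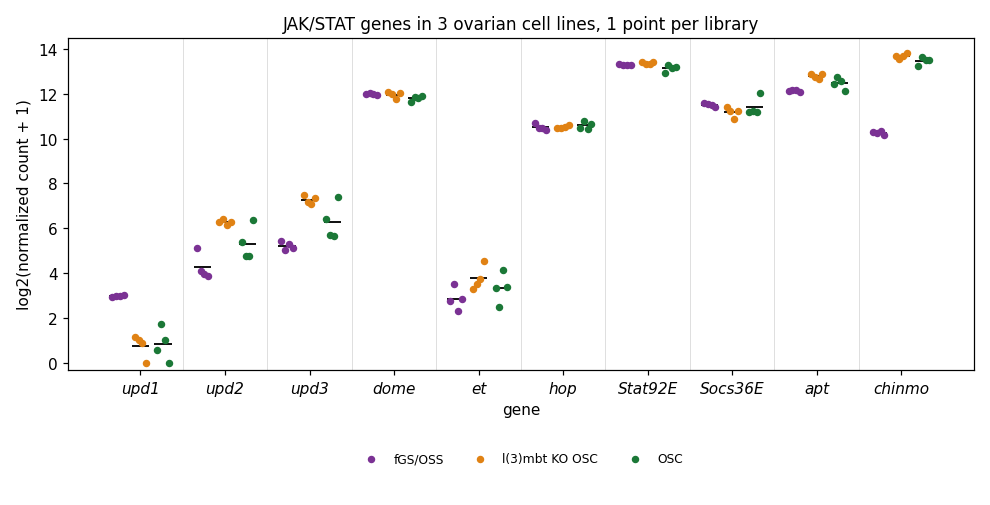
Levels of the 10 genes in fGS/OSS (purple), l(3)mbt KO OSC (orange) and OSC (green) libraries, as log2 of the normalized count plus 1 on the vertical axis, with 1 point per library and black lines for means over 4 libraries. The purple points lie apart from the others for *upd1*, *upd3* and *chinmo*, and the last green point, OSC replicate 4, stands above the other green points for *upd2*, *upd3* and *Socs36E*.

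Introduction of *ovo-FLAG* into OSCs went with higher RNA of 2 ligands and of the feedback inhibitor. Of the 9 genes tested, *upd2*, *upd3* and *Socs36E* rose and *apt* and *chinmo* fell, that is 3 higher and 2 lower, where 13.2% of 9025 genes were higher and 10.3% lower. The median was 0.13 over the 9 genes and -0.01 over all tested.

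*upd2* had 103, 117 and 108 normalized counts with *ovo-FLAG*, against 18.0, 17.1 and 19.0 with the empty vector. The libraries within each group were close together and the groups far apart, 5.78-fold higher (log2 fold change 2.53, SE 0.19, adjusted p = 6.7e-09). *upd3* had 136, 161 and 195 with *ovo-FLAG* and 30.6, 42.7 and 57.5 with the empty vector, a 3.77-fold rise (adjusted p = 6.8e-07). *upd1* remained at the edge of detection, with 0 reads in the *ovo-FLAG* libraries and 1 read in the empty vector libraries, where no difference could be detected. *Socs36E* had 1765, 1595 and 1799 with *ovo-FLAG* and 836, 830 and 853 with the empty vector. It rose 2.04-fold (log2 fold change 1.03, SE 0.06, adjusted p = 4.0e-10), and no *ovo-FLAG* library was within the range of the empty vector.

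*dome*, *Stat92E*, *hop* and *et* did not pass the test in OSCs. *dome* had 1593, 1496 and 1511 normalized counts with *ovo-FLAG* and 1731, 1582 and 1743 with the empty vector (log2 fold change -0.14, 95% interval -0.26 to -0.01, adjusted p = 0.11). *Stat92E* had 5118, 5061 and 5814 with *ovo-FLAG* and 4653, 4843 and 5051 with the empty vector, which do not overlap by a small gap (0.13, 95% interval 0.01 to 0.26, adjusted p = 0.11). *Stat92E* was called higher with quantile normalization (0.21, adjusted p = 0.0083). *hop* had an interval from -0.20 to 0.07. *et* counted 18 reads in *ovo-FLAG* libraries and 16 in those with empty vector (adjusted p = 0.21), and was called higher with edgeR (log2 fold change 1.58, adjusted p = 0.049) and without *ovo-FLAG* replicate 2 (1.62, adjusted p = 0.021). *apt* fell to 2712, 3140 and 3274 with *ovo-FLAG*, against 3400, 3872 and 4140 with the empty vector (1.25-fold lower, adjusted p = 0.0036). *chinmo* had 7343, 6874 and 7488 with *ovo-FLAG* and 8838, 7631 and 7948 with the empty vector, a small fall of 1.12-fold near the threshold (adjusted p = 0.041). It was lost with quantile normalization (0.22) and without empty vector replicate 1 or 3 or *ovo-FLAG* replicate 2 or 3 (0.052 to 0.21).

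In KO-labelled OSCs given *ovo-FLAG*, 3 pathway genes were higher and 4 lower. Of 9 pathway genes tested, *upd2*, *upd3* and *Socs36E* rose and *apt*, *hop*, *dome* and *chinmo* fell, where 16.2% of 9290 genes were higher and 14.2% lower. The median was 0.11 over the 9 genes and 0.03 over all tested. These cells already held *ovo* RNA with the empty vector, as given above.

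*upd2* had 189, 173 and 170 normalized counts with *ovo-FLAG* and 44.4, 48.0 and 34.1 with the empty vector, a 4.17-fold rise (log2 fold change 2.06, SE 0.15, adjusted p = 6.0e-09). *upd3* had 180, 178 and 158 with *ovo-FLAG* and 107, 122 and 117 with the empty vector. The groups were apart here too, by 1.49-fold (adjusted p = 6.5e-04). *Socs36E* had 1824, 1887 and 1741 with *ovo-FLAG* and 1165, 1225 and 1136 with the empty vector (1.55-fold higher, adjusted p = 6.8e-09). *upd1* had 8 reads in *ovo-FLAG* libraries and 0 in those with empty vector, at least 3.53-fold higher by the limit of 3 reads used above, but 2 of the 3 *ovo-FLAG* libraries carried all of them (4.19, 0 and 1.58 normalized counts) and the gene was below the level for testing.

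*apt* fell further in these cells, to 2385, 2330 and 2157 normalized counts with *ovo-FLAG*, against 3975, 3778 and 3979 with the empty vector (1.71-fold lower, adjusted p = 1.4e-10). *hop* had 782, 746 and 714 with *ovo-FLAG* and 837, 893 and 1026 with the empty vector (1.23-fold lower, adjusted p = 0.0022). *dome* had 1672, 1744 and 1666 with *ovo-FLAG* and 1919, 1958 and 1772 with the empty vector (1.11-fold lower, adjusted p = 0.017), and *chinmo* had 7054, 7143 and 6432 against 7737, 7142 and 8110 (1.11-fold lower, adjusted p = 0.022). *chinmo* overlapped between the groups by the narrowest of margins, and both it and *dome* missed the threshold with quantile normalization (adjusted p = 0.67 and 0.11). The call of *chinmo* was also lost without empty vector replicate 1 or *ovo-FLAG* replicate 3 (0.078 and 0.10), and that of *dome* without empty vector replicate 2 or *ovo-FLAG* replicate 1 or 3 (0.064 to 0.091). *Stat92E* had 4453, 4313 and 4310 with *ovo-FLAG* and 3777, 4082 and 4282 with the empty vector (log2 fold change 0.11, adjusted p = 0.061). It was called higher with edgeR (adjusted p = 0.0096), with quantile normalization (8.5e-04) and with DESeq2. It was also called higher without empty vector replicate 3, the library of 1.63 M reads (0.15, adjusted p = 0.0028). That library also had the highest value of *Stat92E* among the empty vector samples.

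**Figure D3:**
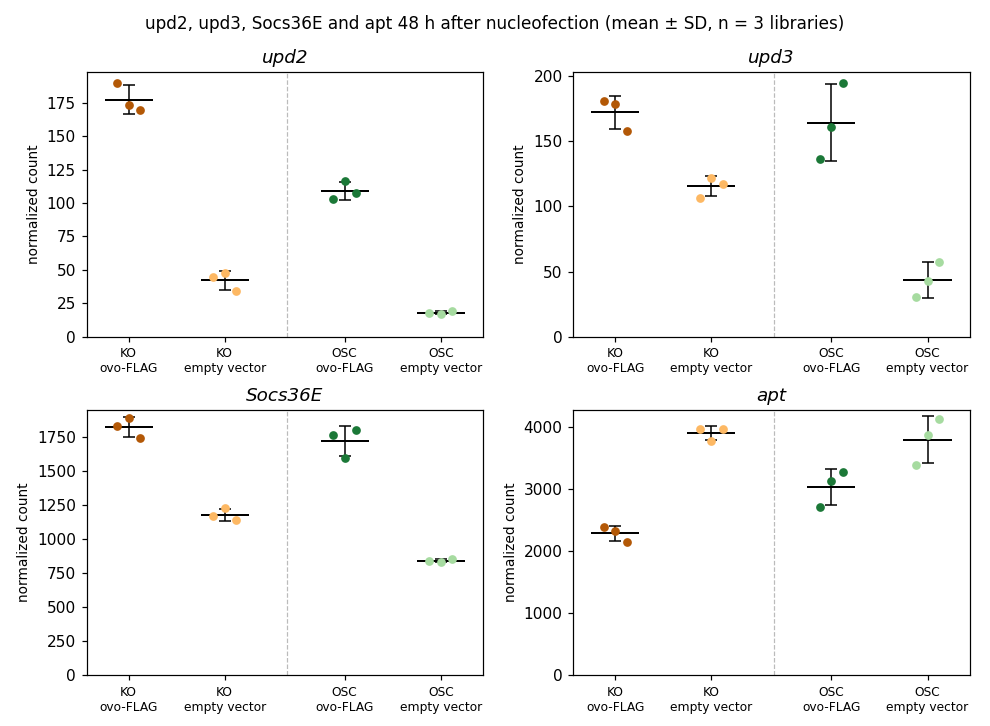
Normalized counts of *upd2*, *upd3*, *Socs36E* and *apt* 48 h after nucleofection, with 1 point per library and the mean ± SD of 3 libraries, for l(3)mbt KO OSC (left of the dashed line) and OSC (right of it), each with *ovo-FLAG* left of its empty vector. The vertical axes start at 0, the 2 lines were scaled apart, and in each line the *ovo-FLAG* points lie above those of the empty vector for the first 3 genes and below them for *apt*.

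Depth differed with the treatment, most in OSCs where every *ovo-FLAG* library was shallower than every empty vector library. The calls of *upd2*, *upd3*, *Socs36E* and *apt* were also made by edgeR on the reads in both lines. The part of depth was not tested. Germ cell markers rose with *ovo-FLAG*, 6 of 8 tested in KO-labelled OSCs (sums of 2132 to 2282 with *ovo-FLAG* and 1060 to 1223 with empty vector) and 6 of 7 in OSCs (648 to 693 and 103 to 125). Follicle cell markers moved in both directions, 3 higher and 2 lower of 5 in OSCs (9205 to 9826 against 9631 to 10711) and 2 higher and 2 lower in KO-labelled OSCs (9979 to 10600 against 12089 to 12699). Polar cell markers *neur* and *Fas3* rose in both lines, with list sums of 2048 to 2147 against 1671 to 1793 in KO-labelled OSCs and of 1341 to 1550 against 1045 to 1163 in OSCs. The third polar cell marker, *cas*, had an adjusted p of 0.18 in KO-labelled OSCs and 0.34 in OSCs. Cap and escort cell markers were lower for 2 of 3 tested in each line, *ptc* and *hh* in KO-labelled OSCs (3722 to 3815 with *ovo-FLAG* and 6085 to 6297 with empty vector) and *ptc* and *Wnt4* in OSCs (4299 to 4497 and 5292 to 5380). Muscle genes were higher for 3 and lower for 1 of 7 in KO-labelled OSCs (755 to 821 against 589 to 712) and higher for 2 and lower for 2 of 7 in OSCs (7488 to 7868 against 8572 to 9408). Of 3 haemocyte markers tested, *srp* rose and *Pxn* fell in OSCs (635 to 712 against 512 to 549, with *NimC1* and *He* at 0 in both groups). In KO-labelled OSCs *Hml*, *srp* and *Pxn* had adjusted p-values of 0.72, 0.96 and 0.51 (826 to 856 against 780 to 867). The part of these genes in the pathway values was not tested.

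Among the other regulators, *BRWD3*, whose product acts in the nucleus in support of STAT, was the one called gene of 14 in both lines, lower with *ovo-FLAG* (log2 fold change -0.14 in KO-labelled OSCs, adjusted p = 0.032, and -0.29 in OSCs, adjusted p = 0.0010). The median of the list was -0.06 and -0.03 in these lines. Of the targets, *vir-1* rose in both. It had 366, 292 and 290 normalized counts with *ovo-FLAG* and 106, 109 and 60.6 with the empty vector in KO-labelled OSCs (log2 fold change 1.81, adjusted p = 1.6e-04). In OSCs it had 473, 446 and 502 with *ovo-FLAG* and 151, 171 and 137 with the empty vector (1.63, adjusted p = 4.1e-10). *slbo* was also called higher in both, at low levels (39.1, 36.0 and 19.7 against 11.9, 14.2 and 11.4 in KO-labelled OSCs, and 19.0, 23.3 and 11.5 against 7.84, 6.65 and 7.82 in OSCs). *zfh1* fell in both lines (-0.57 in KO-labelled OSCs and -0.21 in OSCs). These 3 were the called genes among 5 and 4 targets tested.

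Whether *ovo-FLAG* acted alike in the 2 lines was tested as the difference of its effects, KO-labelled OSCs minus OSCs, in 1 fit over the 12 nucleofected libraries. Of 8706 genes, 3.46% had a more positive and 6.18% a more negative effect in KO-labelled OSCs. Of the 9 pathway genes, 3 were called, each with the more negative effect in KO-labelled OSCs (0 with the more positive one, also at an unadjusted p under 0.05 and with edgeR). *upd3* rose by 0.57 on the log2 scale in KO-labelled OSCs and by 1.92 in OSCs, a difference of -1.34 (SE 0.24, adjusted p = 5.2e-04). *Socs36E* rose by 0.63 in KO-labelled OSCs and by 1.03 in OSCs (difference -0.40, SE 0.08, adjusted p = 9.4e-04). The fall of *apt* was larger in KO-labelled OSCs (-0.77) than in OSCs (-0.32), a difference of -0.45 (adjusted p = 0.0024). All 3 calls were made in each of 17 alternative fits.

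*upd2* rose by 2.06 in KO-labelled OSCs and by 2.53 in OSCs, and its difference of -0.47 did not pass the test (95% interval -0.96 to 0.02, adjusted p = 0.25). *hop*, called lower in KO-labelled OSCs and not in OSCs, had a difference of -0.23 with an adjusted p of 0.16, so its effect was not shown to differ between the lines. The differences of *dome*, *Stat92E* and *chinmo* had intervals of -0.17 to 0.14, -0.18 to 0.13 and -0.15 to 0.17. The rise of *ovo* itself also differed, at 1.33 in KO-labelled OSCs and 5.97 in OSCs on the log2 scale. Its part in the differences above was not tested.

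**Figure D4:**
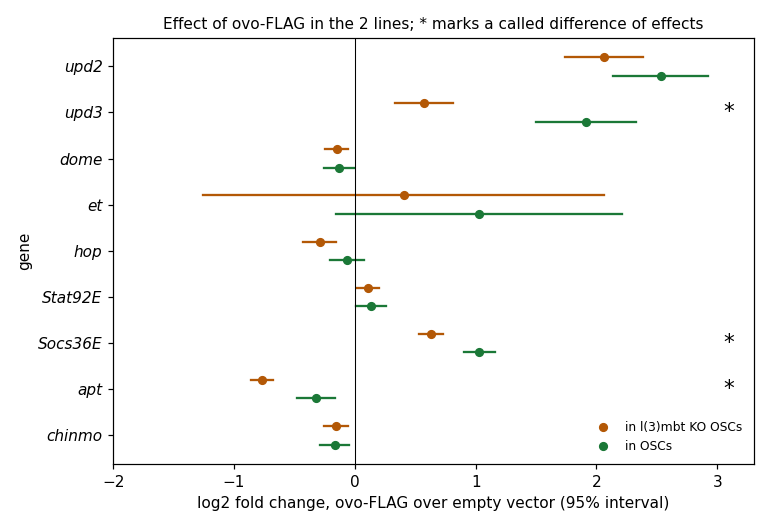
The horizontal axis gives the log2 fold change of *ovo-FLAG* over the empty vector with its 95% interval, in l(3)mbt KO OSCs (orange, upper of each pair) and in OSCs (green, lower), for the 9 genes tested, and stars mark genes whose effects were called different. The orange point lies left of the green one for all 3 starred genes, *upd3*, *Socs36E* and *apt*, and the intervals of *dome*, *Stat92E* and *chinmo* overlap.

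**Figure D5:**
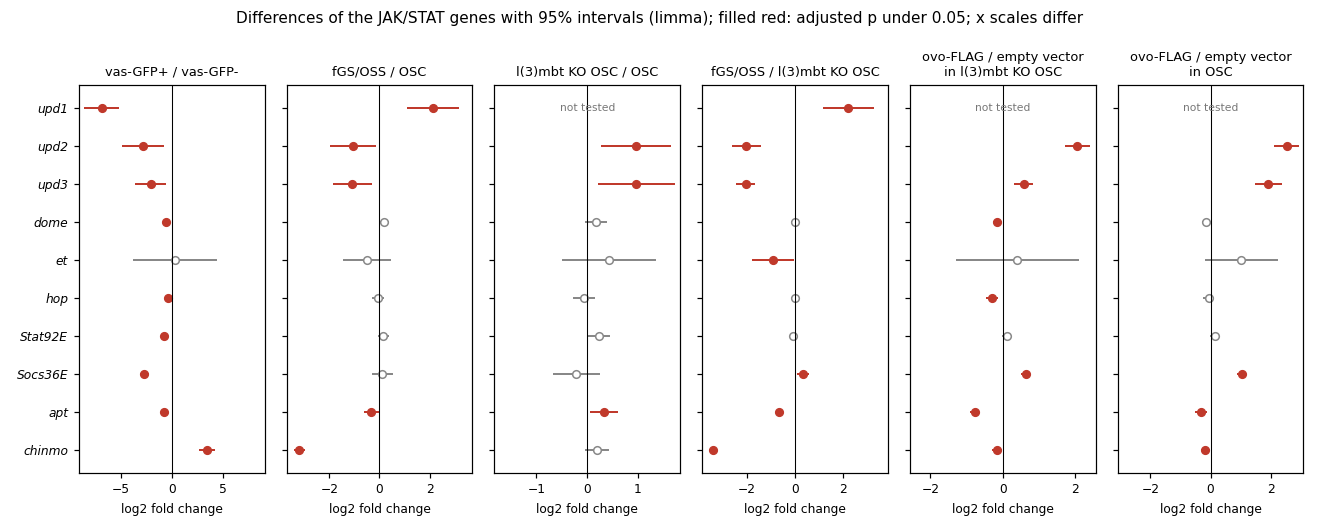
Log2 fold changes (horizontal axes, with scales that differ between panels) of the 10 genes in the 6 comparisons, as points with 95% intervals, where filled red points passed an adjusted p of 0.05 and open points did not. In the 5 panels of cell lines *hop*, *dome* and *Stat92E* stay near 0, and *upd2* and *upd3* lie on the same side of 0 in every panel.

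Across the 30 libraries, each centred on the mean of its table, the pattern of *upd2* was close to that of *upd3* (Pearson r = 0.89) and that of *Stat92E* to that of *Socs36E* (r = 0.80). *Socs36E* was nearer to *upd2* (r = 0.72) than to *upd3* (r = 0.59), and *chinmo* ran against *Socs36E* (r = -0.63). Among 8209 genes with a mean of at least 2 in all 4 tables, those most like *Stat92E* were *Npc1a* (r = 0.96), *aop* (0.94) and *Nc73EF* (0.93). Those most like *Socs36E* were *CG7702* (0.94), *Esyt2* (0.94) and *h* (0.93). For *dome* they were *EcR* (0.95), *sev* (0.92) and *mamo* (0.91), and for *hop* *CG10407* (0.77), *CG7564* (0.73) and *CG4294* (0.73). These are descriptions, since libraries of a group are not independent conditions and the contrast of the sorted fractions weighs heavily in them.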

How the data were processed

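Reads were trimmed (cutadapt 1.18), mapped (STAR 2.7.3a) and assigned to genes by strand (featureCounts, Subread 1.5.3) by the authors. The signal in each of the 4 deposited tables is a normalized count, a gene's reads over a DESeq2 (1.30.1) size factor, and every table was scaled apart. All values of each column were whole multiples of a step (100% within 0.01 of a read), so reads were recovered for edgeR and DESeq2. The authors' 5 tables of fold changes and p-values were not used.

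Groups were compared with limma (version 3.58.1 in R 4.3.3, with a robust mean-variance trend) on log2-transformed normalized counts with 1 added, two-sided, on every gene averaging 2 or more in the libraries compared, with p-values adjusted by Benjamini and Hochberg over all genes tested. Fold changes are on that scale, which understates changes of low genes. Each fit held the 2 groups in question and had no block; the difference of effects held 12 nucleofected libraries. Per-kb levels use the exon length of the Ensembl annotation of BDGP6. The tests were also run on simulated counts in which only well-expressed genes were changed. Low-read genes and a library standing apart were not covered by these. Replicate libraries differed by 1.52 to 84.3 times the variance of counting. Replicate 4 of the OSCs was singled out after its values were seen. The genes, lists and tests were chosen with earlier results of these data known. All 10 genes are named in every comparison, and of the lists the 2 called genes with the smallest p in each direction. The uncalled targets in sorted cells are named as well. Alternatives were edgeR (4.0.16), DESeq2 (1.42.0), pseudocounts of 0.5 and 5, other filters, quantile normalization, a replicate block, the paper's thresholds (log2 fold change beyond 1 and adjusted p under 0.01 for sorted cells, 0.6 and 0.05 for lines, 0.6 and 0.1 for *ovo-FLAG*), 1 spread over the 12 libraries of the lines, and leaving out each library.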

Additional observations from a re-analysis of the deposited data

Results flagged for a closer look

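In the groups of 4 libraries, 30 combinations of gene and group were tested for a library standing apart, where chance flags about 1 in 20. There were 3 flags. *Socs36E* in OSC replicate 4 had 4156 normalized counts, against 2301 to 2412 in the other 3. *hop* had 1565 in 1 library of KO-labelled OSCs, against 1427 to 1446. *upd2* had 33.5 in 1 library of fGS/OSS, against 13.6 to 16.1.

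The effect of *ovo-FLAG* differed between KO-labelled OSCs and OSCs for 3 genes by the test of the difference itself. The difference on the log2 scale was -1.34 for *upd3*, -0.40 for *Socs36E* and -0.45 for *apt*.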

How the results depend on the processing

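Of 1088 values of single genes under an alternative, 965 kept their direction where called and their side of the threshold, 104 lost and 19 gained a call, and none was reversed (0). Counts of pathway genes called moved by over 1.5 times as follows. In sorted cells 8 were lower, against 5 with the replicate block and 2 with the paper's thresholds, and 5 to 8 with 1 library left out; 1 was higher, against 1 to 2 with 1 left out. For fGS/OSS against OSCs 1 was higher, against 0 with a mean of at least 10 (which leaves *upd1* untested), 2 with DESeq2 and 1 to 3 with 1 left out, and 4 were lower, against 2 to 3. For KO-labelled against wild-type OSCs 3 were higher, against 1 with no filter, 0 with edgeR and 0 to 2 with 1 left out. For fGS/OSS against KO-labelled OSCs 2 were higher, against 1 with a mean of at least 10, with the paper's thresholds and with 1 spread over the lines. With *ovo-FLAG* in OSCs 2 were lower, against 1 with no filter and with quantile normalization, 0 with the paper's thresholds and 1 to 2 with 1 left out. In KO-labelled OSCs 4 were lower, against 2 with quantile normalization, 1 with the paper's thresholds and 2 to 4 with 1 left out. The cause of these moves was not tested. Deviations of same-numbered libraries had correlations from -0.04 to 0.08. With so few libraries per group these cannot exclude a shared preparation, as of the sorted fractions, so the replicate block is given as an alternative. With the replicate block, *dome* (lower) and *Stat92E* (higher) were also called with *ovo-FLAG* in OSCs (adjusted p = 0.023 and 0.0033). Low reads limit *upd1*, *upd2* in sorted cells and *et*.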
